A study of Mus musculus with 6 samples.

Results

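Cytokines, chemokines, tumour necrosis factor (TNF) family members and their receptors were examined in whole mouse pancreas after adult deletion of Ptf1a, the transcription factor that maintains the acinar, enzyme-secreting identity of the exocrine pancreas. The genes were taken by symbol: the Ccl, Cxcl and Cx3cl ligands and their receptors, interleukins and interleukin receptors, the colony stimulating factors with the Csf2r chains, the receptors Lifr and Osmr, and the Tnfsf, Tnfrsf, Tnfaip and Traf genes. Of 198 mouse protein-coding symbols in RefSeq that fit these patterns, 51 were analysed here, out of 10245 genes in all. The patterns use symbols only, although they were chosen with earlier results of these data known. RNA was sequenced from the pancreata of 3 control mice, Ptf1a(CreER/+), and 3 Ptf1a conditional knockout mice, Ptf1a(CreER/fl), called Ptf1a cKO. All 6 mice received 3 doses of tamoxifen (TM) by gavage at 0.25 mg per g of body weight and were sacrificed on day 14, and both groups carried the CreER knock-in, an allele that makes no PTF1A protein, so the controls kept 1 functional copy of Ptf1a. Cre was driven from the Ptf1a locus, which in the adult is active in acinar cells, whereas the RNA came from the entire organ. The controls were 4 and the Ptf1a cKO mice 5 months old, and their mouse identifiers fell into 2 series that followed genotype. Age, and whatever the series stand for, cannot be told apart from genotype.

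The deposited values were normalized counts, in which the median gene lay between 125.0 and 128.5 in every library although the summed genes ranged from 17949900 to 21175800 in controls and from 5527100 to 8981110 in Ptf1a cKO. Ptf1a itself was at 566, 601 and 652 normalized counts in the controls and at 19.8, 70.1 and 10.2 in Ptf1a cKO 1, 2 and 3. The 22 acinar markers summed to 12510000 to 15660000 normalized counts in controls and to 2707000, 4824000 and 1556000 in the Ptf1a cKO libraries, 18 of them passing the test as lower, so Ptf1a cKO 2 held the most Ptf1a and the most acinar RNA of its group. Library Ptf1a cKO 3 stood apart by its leukocyte and fat markers, described with the genes that followed them below. In 4 of 6 libraries the Y-linked genes and Xist matched the labelled sex. Control 1, labelled male, had 1726 normalized counts of Xist and a Y-linked sum of 6.31, and control 3, labelled female, had 93.6 of Xist and a Y-linked sum of 220.0, so each result below that changed without either library is given with that change.

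Chemokines are small secreted proteins that steer leukocytes through G-protein-coupled receptors. Interleukins and colony stimulating factors act through receptor chains that are shared between ligands, such as gp130 (Il6st) for the IL-6 family and Il10rb for IL-10 and IL-22, and most of these chains signal through JAK kinases and STAT factors. TNF receptors recruit TRAF adaptors and feed into the NF-kB pathway, which in turn induces feedback inhibitors such as Tnfaip3 (A20). In the pancreas, acinar cells carry the IL-22 receptor, and infiltrating macrophages and activated fibroblasts are known sources of chemokines in pancreatitis and around early neoplastic lesions.

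The sequence before the transcription start was looked up for these genes because PTF1A binds DNA as part of a complex that reads an E-box and a nearby TC box, while NF-kB and STAT factors act downstream of the receptors. RefSeq windows on GRCm38.p6 were found for 42 of the 51 genes, as 51 windows of 250 bases upstream of a start. The first pair below belongs to Il22ra1 and Lifr, both lower in Ptf1a cKO, whose windows hold the E-box CAGCTG. Cxcl14, higher in Ptf1a cKO, is shown for a STAT motif, TTCNNNGAA, and Tnfaip3, the NF-kB target that did not pass the test, for an NF-kB motif, GGANTTTCC. Each is written 5′ to 3′ on the gene's own strand, in lower case with the motif in capitals, and ends at the base before the start.
Il22ra1, chr4:135727909-135728158, plus strand: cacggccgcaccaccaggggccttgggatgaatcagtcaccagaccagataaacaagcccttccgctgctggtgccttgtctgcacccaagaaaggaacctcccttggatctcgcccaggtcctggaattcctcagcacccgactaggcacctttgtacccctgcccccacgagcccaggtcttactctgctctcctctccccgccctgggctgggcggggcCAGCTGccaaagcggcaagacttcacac
Lifr, chr15:7140292-7140541, plus strand: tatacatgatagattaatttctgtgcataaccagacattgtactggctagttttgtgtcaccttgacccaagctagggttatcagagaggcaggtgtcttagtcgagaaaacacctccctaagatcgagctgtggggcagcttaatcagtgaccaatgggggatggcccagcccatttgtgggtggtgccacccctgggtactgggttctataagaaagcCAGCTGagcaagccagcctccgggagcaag
Cxcl14, chr13:56296552-56296801, minus strand: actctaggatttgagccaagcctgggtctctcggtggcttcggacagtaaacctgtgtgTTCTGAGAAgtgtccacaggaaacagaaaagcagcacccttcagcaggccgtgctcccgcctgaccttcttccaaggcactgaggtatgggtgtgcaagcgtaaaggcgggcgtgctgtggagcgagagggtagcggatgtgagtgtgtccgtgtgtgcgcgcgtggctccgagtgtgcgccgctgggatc
Tnfaip3, chr10:19015411-19015660, minus strand: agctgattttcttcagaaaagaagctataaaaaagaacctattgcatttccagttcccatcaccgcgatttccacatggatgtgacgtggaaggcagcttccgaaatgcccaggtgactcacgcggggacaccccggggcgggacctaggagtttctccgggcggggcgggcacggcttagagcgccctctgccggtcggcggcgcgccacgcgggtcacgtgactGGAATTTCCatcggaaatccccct

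The motif begins 28 bases before the start in Il22ra1, 30 in Lifr, 191 in Cxcl14 and 24 in Tnfaip3. Counted on both strands, CAGCTG was present in 9 of the 51 windows (17.6%) and in 13.0% of all 32851 RefSeq windows of that length. It occurred in 3 of 12 genes that were higher with a window (Ccl9, Cxcl13 and Il4ra), in 2 of 5 that were lower and in 4 of 25 that did not pass. The NF-kB motif was present in 4 windows (7.84%) against 1.07% of all windows, in Csf1, Il16, Tnfaip2 and Tnfaip3, none of which passed the test. The STAT motif was in 3 windows against 7.02% of all windows. The TC box TTTCCCA was in 3 windows against 6.82%, those of Ccl8, Csf2ra and Tnfaip1. It was in 0 of the 5 lower genes with a window, so neither Il22ra1 nor Lifr had it beside the E-box. The motifs given here are 4 of 9 searched, and they describe letters in these windows only.

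To ask which of these 51 genes changed on loss of Ptf1a, log2 values were compared with limma across all 10245 genes, and a gene was called at a Benjamini-Hochberg adjusted p under 0.05. Fold changes are on the scale of log2(value + 3.41 normalized counts), given with their standard error (SE), and understate the change of low genes. Of the 51 genes, 13 were higher in Ptf1a cKO, 7 were lower and 31 did not pass. The higher share was 25.5%, against 17.1% of all genes tested, the lower share 13.7% against 16.8%, and both directions together 39.2% against 33.9%. The values of the 2 groups did not overlap for 29 genes (56.9%), 20 of them higher and 9 lower, against 50.8% across the table. The 51 genes had a median log2 fold change of 0.52, compared with 0.04 over the table, with 39 of the 51 above 0 (76.5%) against 53.1% of all genes.

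Those shares are descriptions, since every analysed gene reached at least 27.6 normalized counts in some library, and 14 of the 51 (27.5%) did so only in a Ptf1a cKO library, compared with 5.17% of all genes. These 14 were Csf2ra, Csf2rb, Tnfrsf19, Ccl5, Ccl8, Ccl9, Cxcl13, Cxcr4, Ccr2, Il2rb, Il2rg, Il16, Il17rd and Il33, of which 4 were called higher. Il17d reached it only in a control. With 3 mice against 3, an exact two-sided permutation test of a single gene cannot go below 0.10, which is its value for a gene whose groups do not overlap, so the calls rest on the spread that limma estimated across genes. Scaling mattered for direction: when every library was set to the same total, the median of all genes moved to 1.48, with 48 of the 51 genes called higher and 1 lower, beside 93.6% of all genes called higher, and when the total left out the acinar markers it moved to 0.43, with 30 higher and 4 lower, beside 48.0% of all genes called higher. The 13 genes called higher remained called under both, but both scalings raised the median of all genes, so this does not test those calls.

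**Figure D1:**
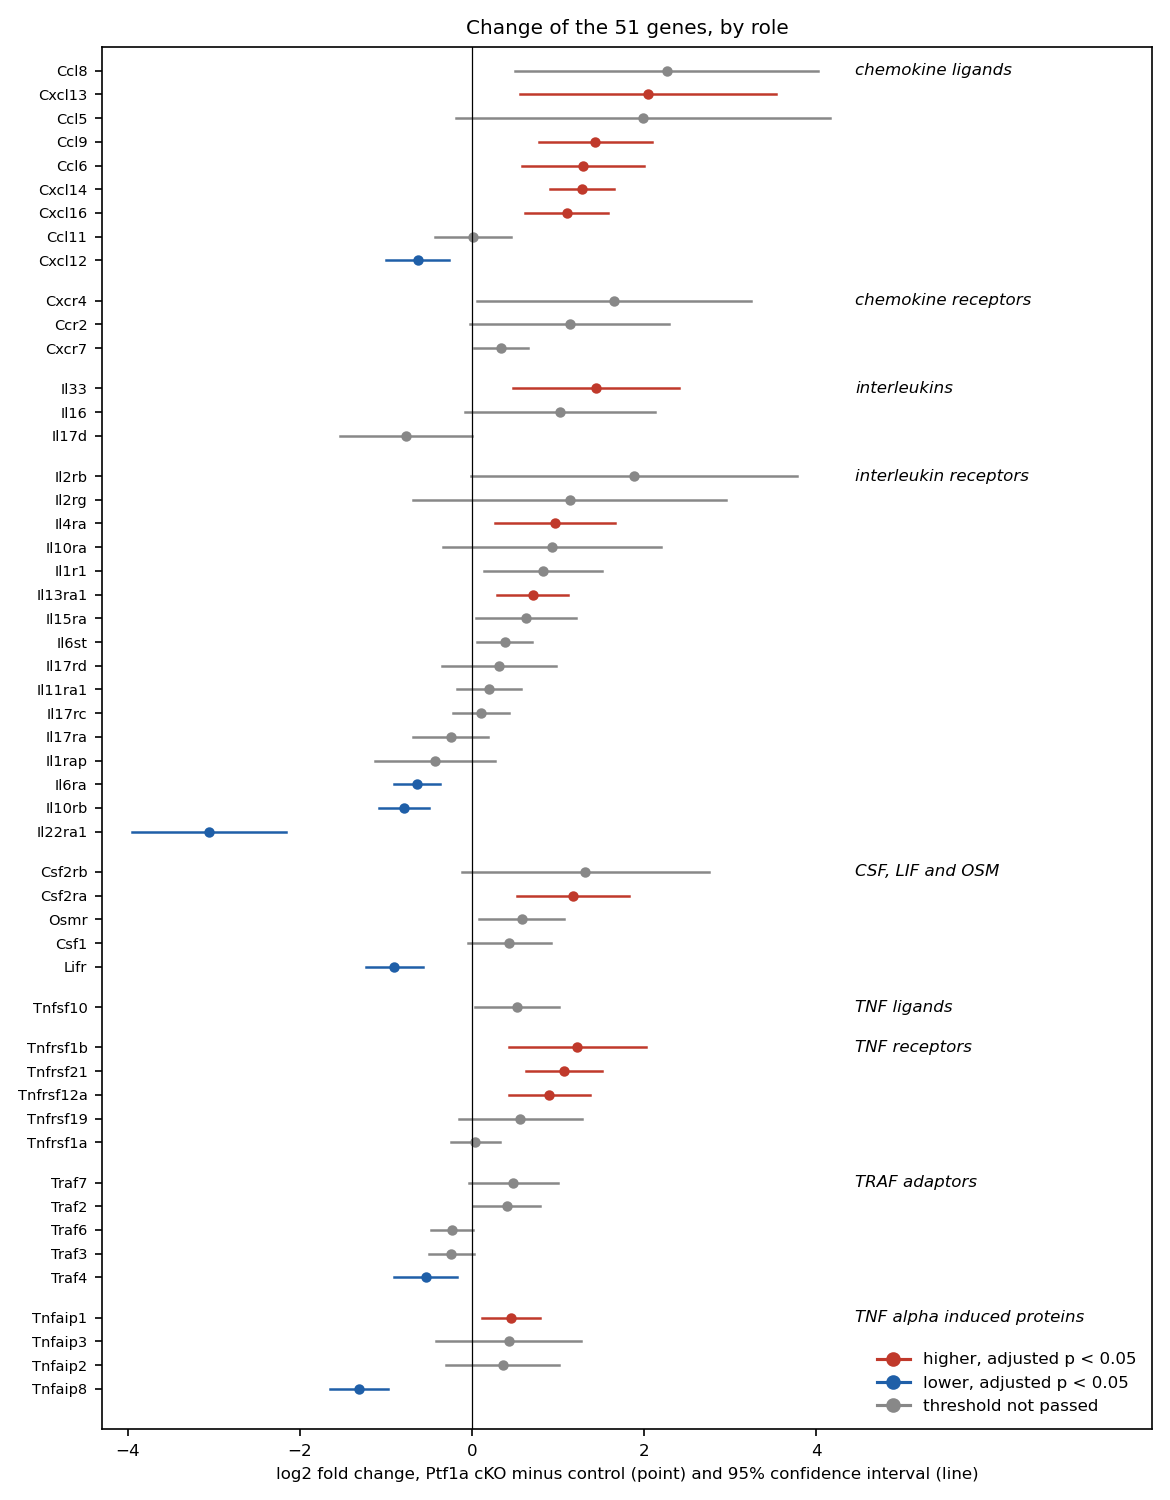
The log2 fold change of each of the 51 genes, Ptf1a cKO minus control (x axis, points), with its 95% confidence interval (lines), grouped by role on the y axis and coloured by whether it passed limma's adjusted p threshold as higher (13) or lower (7). Il22ra1 lies far below the other receptors at -3.06, and the 3 largest values, of Ccl8, Cxcl13 and Ccl5, are of chemokine ligands.

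The deepest loss was of the receptor for IL-22. Il22ra1, the chain that gives the IL-22 receptor its specificity, was at 1103, 1300 and 1759 normalized counts in the controls and at 110.5, 346 and 107 in Ptf1a cKO 1, 2 and 3, a 7.39-fold lower mean (1387 ± 336 against 188 ± 137, SD, n = 3; log2 fold change -3.06, SE 0.40, adjusted p = 6.57e-04). Its partner chain Il10rb, shared with the IL-10 receptor, was at 322, 339 and 300.3 in the controls and at 169, 214 and 170.5 in Ptf1a cKO (log2 fold change -0.79, SE 0.13, adjusted p = 0.00189). Both chains were separated completely between the groups, and both were highest in Ptf1a cKO 2 among the knockouts, the library with the most acinar RNA and the most Ptf1a. In whole-organ RNA, fewer cells of a type and less RNA per cell cannot be told apart, and the part of the acinar RNA in these values was not tested. Il10ra, the chain specific to IL-10, ranged from 6.31 to 32.4 in controls and from 18.9 to 72.9 in Ptf1a cKO and did not pass (log2 fold change 0.93, adjusted p = 0.229).

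Of the receptor chains of the IL-6 family, Lifr and Il6ra fell, and Osmr, Il11ra1 and the shared subunit Il6st did not pass. Lifr, the receptor for leukaemia inhibitory factor, was at 1567, 1741 and 1514 normalized counts in the controls and at 815, 1045 and 739.7 in Ptf1a cKO (log2 fold change -0.90, SE 0.15, adjusted p = 0.00204). Il6ra, the IL-6-binding chain, was at 230.3, 221 and 203 in the controls and at 145, 126 and 145 in Ptf1a cKO (log2 fold change -0.64, SE 0.12, adjusted p = 0.00342). Both fell in every comparison of a knockout with a control. Il6st, the gp130 subunit that both need for signalling, was at 364, 389 and 417 in the controls and at 421, 523 and 591 in Ptf1a cKO (log2 fold change 0.38, adjusted p = 0.0658). Its groups did not overlap by a narrow margin, and it passed without Ptf1a cKO 1, at a log2 fold change of 0.51. Osmr, the oncostatin M receptor that also pairs with gp130, was at 39.4, 44.1 and 27.6 in the controls and at 57.3, 46.9 and 65.3 in Ptf1a cKO (log2 fold change 0.58, adjusted p = 0.0689). It likewise did not overlap, and it passed without Ptf1a cKO 2, at 0.70. Lifr and Il6ra thus fell, while Il6st and Osmr had values on the higher side that did not pass. Il11ra1, the IL-11-binding chain, was not called (log2 fold change 0.19), and its value is uncertain because mouse carries near-identical copies of that gene.

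With every library set to the same total, the direction of Lifr (0.59), Il6ra (0.83) and Il10rb (0.69) turned, all still below the 1.48 of the median gene, while Il22ra1 stayed lower (-1.58). With a total that left out acinar markers, Il22ra1, Il10rb and Lifr remained called as lower and Il6ra did not (-0.24).

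**Figure D2:**
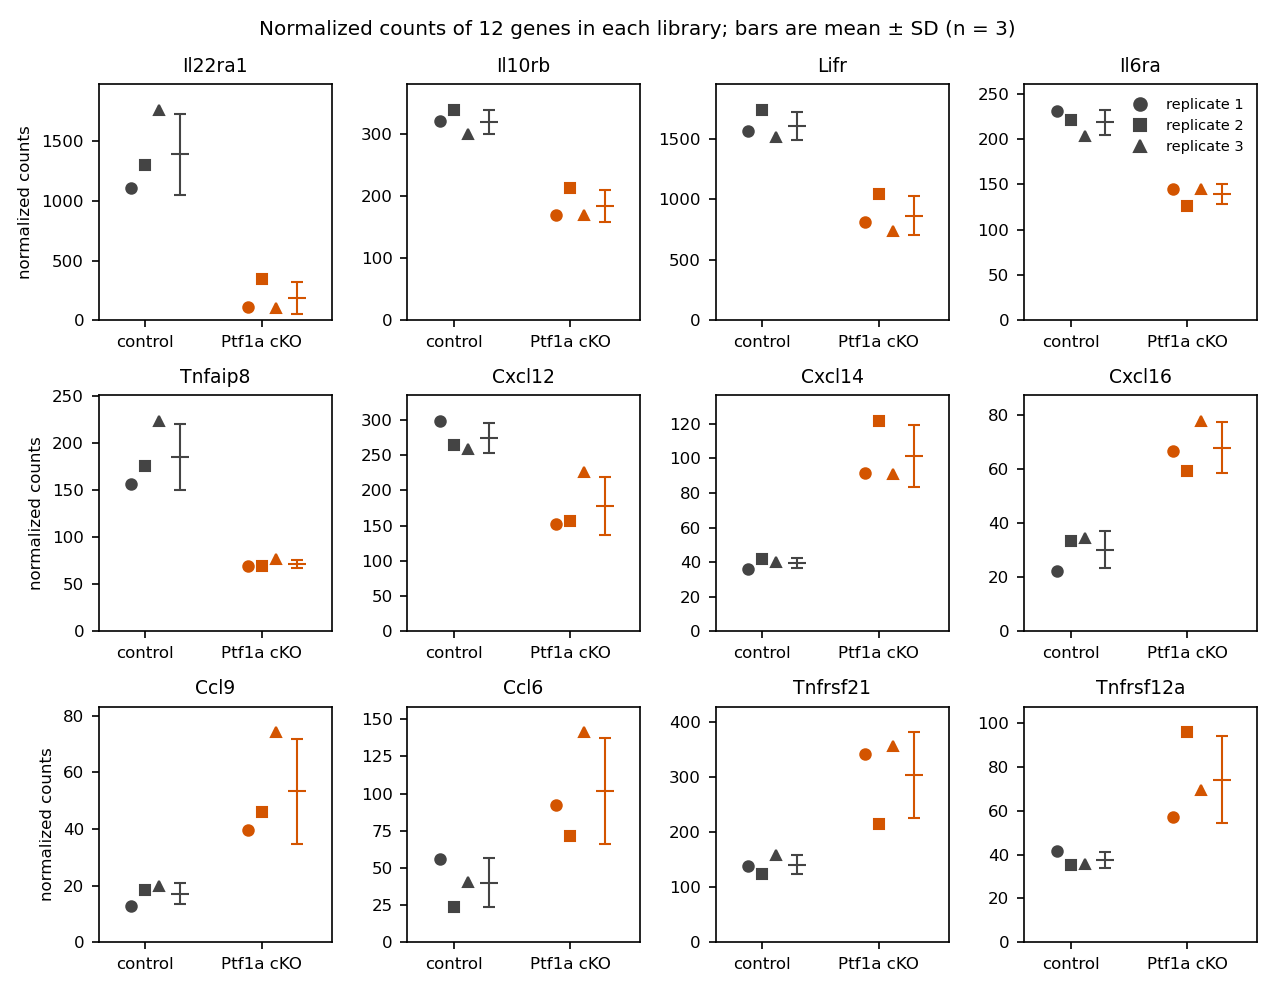
Normalized counts (y axis, linear from 0) of 12 genes in each control and Ptf1a cKO library, with the replicate number as marker shape and the mean ± SD (n = 3) beside the points. The upper row and the first pair of the middle row show genes that were lower without overlap, and the remaining 6 genes were higher without overlap.

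Among chemokine ligands, 5 of 9 rose, 1 fell and 3 did not pass, with a median log2 fold change of 1.29. Beside the 17.1% of all genes called higher, this count is a description, as Ccl5, Ccl8, Ccl9 and Cxcl13 reached 27.6 normalized counts only in Ptf1a cKO libraries. Cxcl14, a chemokine made by epithelia and fibroblasts, had the smallest p of them, at 36.0, 41.8 and 40.3 normalized counts in the controls and 91.2, 122 and 91.0 in Ptf1a cKO (log2 fold change 1.28, SE 0.16, adjusted p = 6.34e-04). Cxcl16, the membrane-anchored ligand of Cxcr6, was at 22.3, 33.6 and 34.6 in the controls and at 66.6, 59.3 and 77.9 in Ptf1a cKO (log2 fold change 1.10, SE 0.21, adjusted p = 0.00454). For both, the lowest knockout lay well above the highest control, and both were called with any 1 library left out. Ccl9 and Ccl6, related CC chemokines made by macrophages and other myeloid cells, rose as well. Ccl9 was at 12.9, 18.5 and 19.99 in the controls and at 39.6, 45.9 and 74.3 in Ptf1a cKO (log2 fold change 1.43, SE 0.29, adjusted p = 0.00592). Ccl6 was at 56.1, 23.8 and 40.8 in the controls and at 92.1, 71.8 and 142 in Ptf1a cKO (log2 fold change 1.29, SE 0.31, adjusted p = 0.0135). Neither overlapped, both were highest in Ptf1a cKO 3, and both kept their calls in all 6 fits that left out a library.

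Cxcl13, the B-cell attractant of lymphoid follicles, was at 2.45, 3.57 and 11.1 normalized counts in the controls and at 10.05, 54.9 and 49.2 in Ptf1a cKO (log2 fold change 2.04, SE 0.66, adjusted p = 0.0400). Its groups overlapped, as Ptf1a cKO 1 lay under control 3, and the call was lost without control 1, control 2, Ptf1a cKO 2 or Ptf1a cKO 3, with log2 fold changes of 1.66 to 2.72 over the 6 fits. Ccl8, chosen here after its values were seen because it had the largest log2 fold change of the 51 genes, was at 22.6, 3.92 and 11.2 in the controls and at 164, 13.98 and 102 in Ptf1a cKO and missed the threshold (2.26, SE 0.78, adjusted p = 0.0508), with Ptf1a cKO 2 among the controls. Ccl11, the eosinophil attractant eotaxin, did not pass (log2 fold change 0.01, 95% interval -0.43 to 0.46).

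The ligand that fell was Cxcl12, the stromal chemokine that binds Cxcr4 and Cxcr7. It was at 299, 264 and 259 normalized counts in the controls and at 152, 157 and 226 in Ptf1a cKO (log2 fold change -0.63, SE 0.16, adjusted p = 0.0161), with Ptf1a cKO 3 closest to the controls. The call was lost without control 1 or Ptf1a cKO 1 (log2 fold change -0.53 in the latter) and with a total that left out acinar markers (-0.23, adjusted p = 0.298), and the direction turned with every library at the same total (0.84). The summed fibroblast and stellate markers, a cell type that makes Cxcl12, went the other way, from 3089 to 3507 normalized counts in controls to 6084 to 10700 in Ptf1a cKO, with 10 of 11 called higher. The 9 endothelial markers, another known source, summed to 1294 to 1668 in controls and 1305 to 1503 in Ptf1a cKO, with 0 called by limma. The part of either cell type in Cxcl12 was not tested.

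None of the 3 chemokine receptors was called. Cxcr4, the signalling receptor for Cxcl12, was at 10.2, 1.42 and 10.3 normalized counts in the controls and at 12.5, 17.98 and 78.2 in Ptf1a cKO (log2 fold change 1.65, SE 0.71, adjusted p = 0.0997). Cxcr7, now named Ackr3, which scavenges Cxcl12, lay between 59.5 and 64.8 in controls and between 71.1 and 88.3 in Ptf1a cKO (log2 fold change 0.34, adjusted p = 0.0932). Neither overlapped between the groups, but Cxcr4 rested on Ptf1a cKO 3, without which its log2 fold change was 0.93. Ccr2, the receptor of inflammatory monocytes, overlapped, with 17.01 in Ptf1a cKO 2 and 68.5 and 86.0 in the other two knockouts against 13.1 to 25.0 in controls (log2 fold change 1.13, adjusted p = 0.116).

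Il33, an alarmin stored in the nuclei of stromal and epithelial cells, was the called interleukin among 3, at 17.3, 17.4 and 4.69 normalized counts in the controls and 35.5, 29.9 and 49.8 in Ptf1a cKO (log2 fold change 1.44, SE 0.43, adjusted p = 0.0294). The groups did not overlap. The call was lost without Ptf1a cKO 1 or Ptf1a cKO 3, and leaving out control 3, whose value was low, brought the log2 fold change to 0.98 with the call kept. Il16, a lymphocyte chemoattractant, is described below with the genes led by Ptf1a cKO 3, and Il17d was on the lower side with overlap (log2 fold change -0.77, adjusted p = 0.111).

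Both chains of the type II IL-4 receptor, which binds IL-4 and IL-13 on non-lymphoid cells and on macrophages, were higher. Il4ra was at 38.2, 37.2 and 30.9 normalized counts in the controls and at 56.6, 51.3 and 127 in Ptf1a cKO (log2 fold change 0.96, SE 0.31, adjusted p = 0.0388). Il13ra1 was at 39.6, 48.8 and 55.96 in the controls and at 89.3, 65.99 and 85.9 in Ptf1a cKO (log2 fold change 0.70, SE 0.18, adjusted p = 0.0174). Every knockout lay above every control for both chains. Il4ra was led by Ptf1a cKO 3 and lost its call without that library (0.57) or without any 1 control, with an adjusted p of up to 0.109, and Il13ra1 lost it without control 1, Ptf1a cKO 1 or Ptf1a cKO 3, with an adjusted p of up to 0.0661. Il1r1, the signalling IL-1 receptor, was at 45.3, 42.2 and 73.2 in the controls and at 97.8, 60.8 and 142 in Ptf1a cKO and did not pass (log2 fold change 0.83, adjusted p = 0.0620). It was called without control 3, the library against its sex label, and without Ptf1a cKO 2, where the log2 fold change was 1.13. Of the remaining interleukin receptors outside the IL-2 group, Il15ra (0.63), Il17rd (0.31), Il17rc (0.10), Il17ra (-0.25) and Il1rap (-0.44) did not pass. Across all 16 interleukin receptors, 2 rose (12.5%), 3 fell (18.75%) and 11 did not pass, beside 17.1% higher and 16.8% lower of all genes.

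In the colony stimulating factor group, Csf2ra, the ligand-binding chain for GM-CSF, was at 26.5, 19.96 and 24.2 normalized counts in the controls and at 64.2, 36.03 and 79.6 in Ptf1a cKO (log2 fold change 1.17, SE 0.29, adjusted p = 0.0138). All knockouts lay above all controls, and the call was lost without Ptf1a cKO 1, at an adjusted p of 0.0519. The shared signalling chain Csf2rb, whose reads may be split with a close mouse paralog, spanned 2.70 to 16.96 in controls and 15.5 to 69.2 in Ptf1a cKO and did not pass (log2 fold change 1.32, adjusted p = 0.136). Csf1, the growth factor of macrophages, was at 61.3, 50.3 and 66.2 in the controls and at 58.2, 88.2 and 102 in Ptf1a cKO (log2 fold change 0.43, adjusted p = 0.143). Csf1 overlapped and was called only without Ptf1a cKO 1 among these 6 fits (0.66), whereas its receptor Csf1r, a macrophage gene, was called higher (log2 fold change 1.05, adjusted p = 0.00352). The 12 analysed macrophage markers, of 15 listed and with Csf1r among them, summed to 762 to 1335 normalized counts in controls and to 2998, 2043 and 3546 in Ptf1a cKO 1, 2 and 3, and all 12 were called higher. None of the 10 neutrophil and 10 mast cell and eosinophil markers was among the genes analysed here. The part of macrophage RNA in Ccl6, Ccl9, Csf2ra and Il4ra was not tested.

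Of 5 TNF receptors, 3 rose and none fell, beside 17.1% and 16.8% of all genes. Tnfrsf21 (death receptor 6) was at 139, 125 and 159.6 normalized counts in the controls and at 342, 215 and 357 in Ptf1a cKO (log2 fold change 1.06, SE 0.20, adjusted p = 0.00352). Tnfrsf12a, the receptor for TWEAK known as Fn14 and induced in injured epithelia, was at 41.6, 35.04 and 35.6 in the controls and at 57.0, 95.9 and 69.4 in Ptf1a cKO (log2 fold change 0.90, SE 0.21, adjusted p = 0.0103). Both were separated from the controls in all 3 knockouts and were called with any 1 library left out, and Tnfrsf12a was highest in Ptf1a cKO 2. Tnfrsf1b, the TNF receptor 2 of leukocytes and endothelium, was at 19.8, 19.9 and 29.8 in the controls and at 39.7, 45.2 and 106 in Ptf1a cKO (log2 fold change 1.22, SE 0.35, adjusted p = 0.0261). It did not overlap but lost its call without control 1, control 2 or Ptf1a cKO 3, with 0.81 in the last. Tnfrsf1a, the ubiquitous TNF receptor 1, was at 224, 239.8 and 261 in the controls and at 252, 278 and 217 in Ptf1a cKO, with a log2 fold change of 0.04 and a 95% interval of -0.25 to 0.33. Tnfrsf19 (0.56, adjusted p = 0.199) and the death ligand Tnfsf10, or TRAIL (0.52, adjusted p = 0.0925), did not pass.

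The TRAF adaptors, which link these receptors to NF-kB and MAP kinases, showed small differences on either side. Traf4, an epithelial TRAF, was at 214, 183 and 166 normalized counts in the controls and at 105, 154 and 127 in Ptf1a cKO (log2 fold change -0.54, SE 0.16, adjusted p = 0.0296). Its groups did not overlap, but it was called in 2 of the 6 fits that left out a library, those without control 3 or Ptf1a cKO 2, its adjusted p reached 0.109, it was not called with a total that left out acinar markers (-0.15, adjusted p = 0.498), and its direction turned with every library at the same total (0.93). Traf2, the TNF receptor adaptor, was at 59.3, 83.4 and 63.02 in the controls and at 102, 77.8 and 94.3 in Ptf1a cKO (log2 fold change 0.40, adjusted p = 0.0975). Traf6, the adaptor of IL-1 receptors and CD40, was at 165, 180.3 and 166 in the controls and at 137, 149 and 146 in Ptf1a cKO (log2 fold change -0.24, adjusted p = 0.124). Traf6 did not overlap, and Traf2 did. Traf3 (-0.24) and Traf7 (0.48) did not pass.

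Among the 4 genes named for induction by TNF, Tnfaip8, a regulator of apoptosis and lipid signalling, fell, from 157, 176 and 224 normalized counts in the controls to 69.6, 69.05 and 76.6 in Ptf1a cKO (2.59-fold lower mean, log2 fold change -1.32, SE 0.15, adjusted p = 3.66e-04). The knockouts were closely grouped and far below the controls, the call held with any 1 library left out, and with every library at the same total the value became 0.14, below the median gene. Tnfaip1, an adaptor of a ubiquitin ligase, was at 129, 168 and 194 in the controls and at 224, 221 and 222 in Ptf1a cKO (log2 fold change 0.45, SE 0.15, adjusted p = 0.0446). It did not overlap, but of the 6 fits that left out a library only the one without control 3 called it, with log2 fold changes from 0.30, without control 1, to 0.58. Tnfaip3, the NF-kB inhibitor A20, was at 24.4, 28.96 and 21.7 in the controls and at 27.96, 21.6 and 66.5 in Ptf1a cKO (log2 fold change 0.43, adjusted p = 0.404). Its excess came from Ptf1a cKO 3, and without that library the value was -0.01. Tnfaip2 did not pass (0.36, adjusted p = 0.368).

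Genes known from lymphocytes were highest in Ptf1a cKO 3, by a wide margin. Ccl5, the T-cell chemokine RANTES, was at 6.74, 1.31 and 1.195 normalized counts in the controls and at 9.89, 6.05 and 105 in Ptf1a cKO (log2 fold change 1.98, SE 0.96, adjusted p = 0.138). Il2rg, the common gamma chain, was at 16.02, 8.39 and 14.4 in the controls and at 28.7, 6.24 and 135 in Ptf1a cKO (log2 fold change 1.13, SE 0.80, adjusted p = 0.300). Il2rb, which pairs with it in the receptors for IL-2 and IL-15, was at 2.44, 6.81 and 1.36 in the controls and at 18.8, 5.14 and 71.8 in Ptf1a cKO (log2 fold change 1.88, SE 0.84, adjusted p = 0.112). None of these 3 passed, all overlapped through Ptf1a cKO 2, and without Ptf1a cKO 3 their log2 fold changes were 0.89, 0.14 and 1.07, whereas all 3 were called without Ptf1a cKO 2 (2.65, 2.07 and 2.64). Il16 was likewise led by Ptf1a cKO 3, at 20.7, 13.04 and 20.7 in the controls and at 27.9, 21.6 and 97.7 in Ptf1a cKO (log2 fold change 1.02, adjusted p = 0.136). Across the 51 genes, Ptf1a cKO 3 was the highest of the knockouts for 30 (58.8%), against 34.6% of all genes. Ptf1a cKO 2 was the lowest for 26, against 3519 of all 10245 genes. These counts are descriptions, as 14 of the 51 genes reached 27.6 normalized counts only in Ptf1a cKO libraries. Among the 14, Ccl5, Il2rb, Cxcr4, Csf2rb and Il17rd did so in Ptf1a cKO 3 alone.

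The same library was highest in the summed pan-leukocyte, macrophage and T and NK cell markers. It was not highest in the summed antigen-presenting, B and plasma cell or lymph node markers. The 6 dendritic and antigen-presenting markers analysed of 11 listed summed to 729 to 1545 normalized counts in controls and to 5980, 1231 and 5033 in Ptf1a cKO 1, 2 and 3. The 10 pan-leukocyte markers summed to 441 to 645 normalized counts in controls and to 1095, 692.5 and 2413 in Ptf1a cKO 1, 2 and 3, 6 of them were called higher, and 9 were highest in Ptf1a cKO 3. Ptprc (CD45) was at 22.7 to 56.2 in controls and at 86.6, 57.0 and 419 in Ptf1a cKO. The 3 T and NK cell markers analysed of 15 listed summed to 35.7 to 69.8 in controls and to 123.6, 139.1 and 358.2 in Ptf1a cKO, but Thy1, also in the fibroblast list, made up 92.5, 135 and 186 of the latter. Cd4 was at 11.98, 2.79 and 78.8 and Lck at 19.2, 1.43 and 93.7 in Ptf1a cKO 1, 2 and 3, against 2.65 to 14.7 and 1.42 to 11.3 in controls. The 4 B and plasma cell markers analysed of 11 listed summed to 4541 to 5624 in controls and to 5228, 5328 and 4385 in Ptf1a cKO. Xbp1 made up 5166, 5186 and 4041 of the latter, and 3 of the 4 were highest in Ptf1a cKO 3. Cd79b, a B-cell gene, was at 0 in Ptf1a cKO 1, at 5.73 in Ptf1a cKO 2 and at 94.3 in Ptf1a cKO 3. The 4 lymph node markers analysed of 10 listed summed to 10080 to 10870 in controls and to 42340, 61230 and 44470 in Ptf1a cKO. Most of that was Clu, and 3 of the 4 were highest in Ptf1a cKO 3. Glycam1, a gene of lymph node venules, was at 356 in Ptf1a cKO 3 and at 0 in the other two knockouts, and all 6 fat markers analysed were highest in Ptf1a cKO 3, summing to 1881 against 178 to 724 elsewhere. The part of these cells in the cytokine and receptor values of Ptf1a cKO 3 was not tested.

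**Figure D3:**
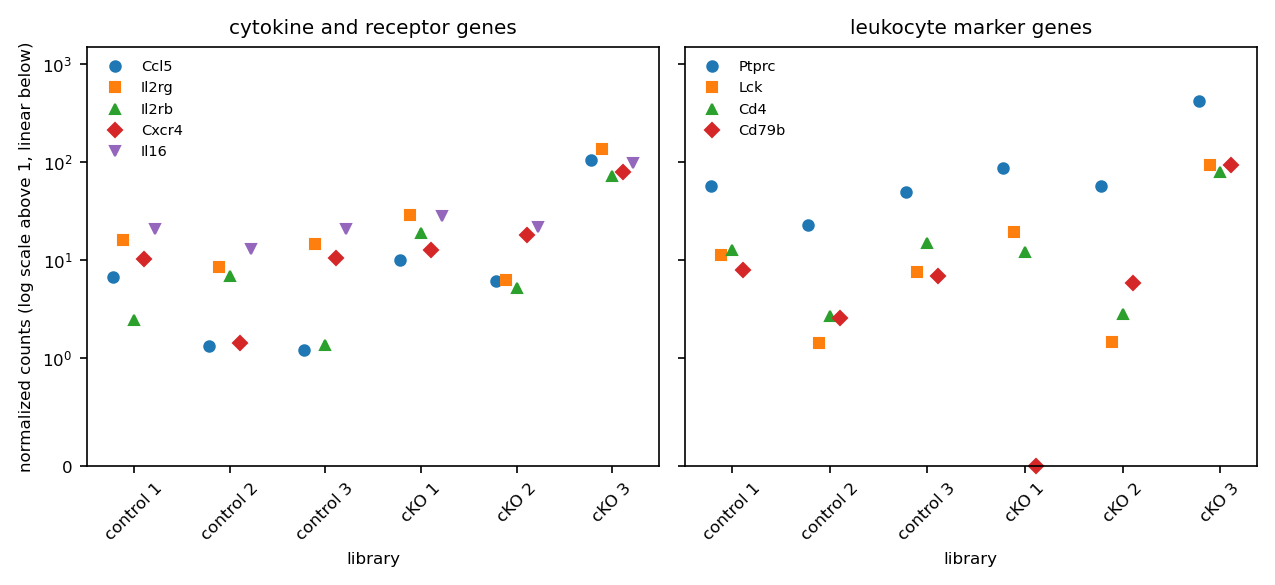
Normalized counts (y axis, log scale above 1 and linear below) in each of the 6 libraries (x axis) of 5 cytokine and receptor genes (left) and 4 leukocyte marker genes (right), 1 point per library. All 9 genes are highest in Ptf1a cKO 3, and Cd79b is at 0 in Ptf1a cKO 1.

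Leaving out 1 library at a time, 7 to 19 of the 51 genes were called higher and 5 to 7 lower. Over the same fits, 11.5 to 18.1% of all genes were called higher and 11.5 to 17.1% lower. Without Ptf1a cKO 3, 7 were higher and 6 lower, while the share of all genes called higher was 11.5%, and the calls lost were those of Cxcl13, Il33, Il4ra, Il13ra1, Tnfrsf1b, Tnfaip1 and Traf4. Without Ptf1a cKO 2, 19 were higher and 7 lower, with 18.1% of all genes higher. Without control 1 or control 3, the libraries that went against their sex labels, 8 were higher and 5 lower and 13 were higher and 7 lower, respectively. The 11 genes called in all 6 fits were Cxcl14, Cxcl16, Ccl6, Ccl9, Tnfrsf12a and Tnfrsf21 on the higher side and Il22ra1, Il10rb, Il6ra, Lifr and Tnfaip8 on the lower side.

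**Figure D4:**
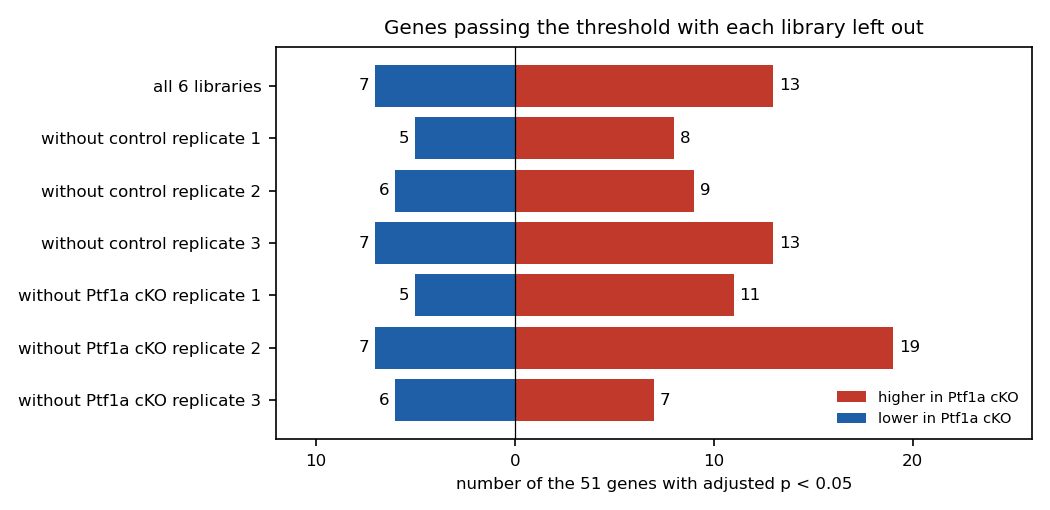
Number of the 51 genes called higher (right) or lower (left) in Ptf1a cKO at an adjusted p under 0.05 (x axis) with all 6 libraries and with each library left out in turn (y axis). The higher count runs from 7 without Ptf1a cKO 3 to 19 without Ptf1a cKO 2, and the lower count from 5 to 7.

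Of 109 further genes of these pathways whose symbols the patterns do not take, 74 were analysed, and 14 of them were higher in Ptf1a cKO, 8 were lower and 52 did not pass, with a median log2 fold change of 0.13. The shares of 18.9% higher and 10.8% lower stand beside 17.1% and 16.8% of all genes. Without Ptf1a cKO 3 or without control 2, 8 were called higher. Among other cytokines, chemokines and receptors, 9 of 18 rose and 3 fell. Kit, the stem cell factor receptor, rose from 246, 233 and 180.2 to 483, 417 and 458 (log2 fold change 1.04, SE 0.14, adjusted p = 7.92e-04). The interferon gamma receptor split, with Ifngr1, the ligand-binding chain, higher (log2 fold change 0.87, adjusted p = 0.00332) and Ifngr2, the signalling chain, lower (-0.55, adjusted p = 0.00773). The control values of Ifngr1 were 94.8, 77.1 and 88.7 and its Ptf1a cKO values 145, 144 and 199, whereas those of Ifngr2 were 142, 137 and 157 in the controls and 90.5, 98.98 and 105 in Ptf1a cKO, so that neither chain overlapped. Of 5 TNF family genes with other symbols, Ltbr, the lymphotoxin beta receptor, was lower (log2 fold change -0.47, adjusted p = 0.0112), while Fas (0.58, adjusted p = 0.0850) and Eda2r (1.15, adjusted p = 0.104) did not pass.

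Of 23 JAK, STAT and SOCS genes analysed, 2 rose, 2 fell and 19 did not pass, 8.70% in each direction and thus under the shares of all genes. Jak3, the kinase bound by the common gamma chain, was higher (log2 fold change 1.09, adjusted p = 0.00860), at 44.0, 38.6 and 54.4 normalized counts in the controls and 76.6, 88.2 and 147 in Ptf1a cKO. Socs7 (-0.97, adjusted p = 6.34e-04) and the STAT inhibitor Pias2 (-0.61, adjusted p = 0.00560) were lower. Stat3 and Socs3 were chosen after their values were seen and did not pass. Stat3, used by the IL-6 family and IL-22, had a log2 fold change of 0.24 with a 95% interval of -0.02 to 0.50, and Socs3, its feedback inhibitor, of 0.05 with an interval of -0.47 to 0.57. Of 28 adaptors of IL-1 and TNF receptors, 3 rose (10.7%) and 2 fell (7.14%), also under those shares. Tollip and Irak1, which act directly beneath the IL-1 and Toll-like receptors, were lower without overlap (log2 fold changes of -1.005 and -0.85, adjusted p = 6.01e-04 and 0.00127), and Tank, which binds TRAFs, was higher (1.03, adjusted p = 0.00173).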

How the data were processed

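Total RNA from whole pancreas of 6 mice was sequenced on an Illumina HiSeq instrument. Per the submitters' processing notes, TopHat2 2.0.4, Bowtie 0.12.7.0, SAMtools 0.1.18.0 and HTSeq 0.6.0 were used with mm9, and the authors analysed the data with edgeR and TMM scaling. The deposited table gives, for each gene and library, normalized counts (a signal, not whole reads), so the reads behind each value could not be recovered and no counting interval was computed. Rows that name no gene, 75.7 to 82.6% of a library's normalized counts, were left out.

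Values were divided by 13.6393, the same factor for all libraries, and log2(value + 0.25) was fitted with limma 3.58.1 (lmFit, then eBayes with a trend; R 4.3.3) on all 10245 genes, 3 Ptf1a cKO against 3 control, two-sided, with Benjamini-Hochberg adjustment over all genes. The offset equals 3.41 normalized counts. A filter at a mean of 0.25 removed 0 genes. Because the values were not counts, the authors' count test was not used. The fit was tested on simulated data. Tables were joined with Python 3.11.15 and pandas 2.3.3.

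The members and gene lists were chosen with earlier results of these data known. Values per library are given for members past the threshold and for a fixed list of cytokine and receptor genes, where analysed. They are also given for members in which 1 library exceeded 5 times the median of its group's others. In each pathway list they are given for the 3 genes with the smallest adjusted p and partners of named members. Of the fixed list, Cxcl1, Cxcl2, Cxcl5, Cx3cl1, Ccl2, Ccl21a, Il1b, Il6, Il18, Il17rb and Traf1 were not among the genes analysed, so their change is not known here. Alternatives covered the offset, filter, scaling, variance model, sex as labelled, threshold, replicate block and leaving out each library. The labels give separate mouse identifiers. Of the 51 symbols, 50 matched RefSeq directly and 1 through an older symbol. Promoter windows came from RefSeq on GRCm38.p6. Some genes of the lists are counted but not reported here by name.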

Additional observations from a re-analysis of the deposited data

How the results depend on the processing

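Direction depended on scaling. With every library at the same total, 48 of the 51 genes were called higher and 1 lower, their median log2 fold change was 1.92, and 71 pathway genes were higher and 1 lower. Under that total the signs of Lifr (0.59), Tnfaip8 (0.14), Traf6 (1.23), Traf4 (0.93), Cxcl12 (0.84), Il6ra (0.83) and Il10rb (0.69) turned, where the median of all genes was 1.48. A total without the acinar markers gave 30 higher and 4 lower, a median of 0.90, and 43 pathway genes higher and 4 lower, and Traf6 moved to 0.16. At an adjusted p under 0.01, 4 genes were higher and 6 pathway genes were higher, beside 8.12% of all genes. With each library left out in turn, 7 to 19 genes were called higher, 5 to 7 lower, 8 to 18 pathway genes higher and 7 to 9 lower, and the median was 0.42 to 0.64. Cxcl13 was not called with sex as a covariate (adjusted p = 0.0548), a fit whose labels 2 libraries went against. Offsets of 0.05 and 1, robust estimation, the 75th percentile and median-of-ratios scaling left the counts within 1.5 times those reported. Without a trend in limma, Il4ra (adjusted p = 0.0560), Tnfaip1 (0.0703) and Traf4 (0.0502) were not called, and with median-of-ratios scaling Tnfaip1 was not (0.0551). The reads behind each value could not be recovered, and 3 mice a group limit the precision.

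With the replicate number as a replicate block, 18 genes were called higher and 7 lower, beside 17.7% and 16.7% of all genes. Those gained were 5 (Ccl8, Ccr2, Il10ra, Il1r1 and Il6st), and none was lost. The deviations of same-numbered libraries correlated at 0.039, 0.134 and 0.144. Differently numbered libraries were not compared, so these values cannot decide whether the numbers pair the mice.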
